A study of Mus musculus with 2 samples.

Results

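The collagen genes are the 44 genes of the deposited table whose symbol consists of Col, a type number, the letter a and a chain number, out of 24091 genes listed. They cover 27 collagen types and were picked by symbol, with no cut on their values, although earlier results of these data were known. By type, 11 belong to the fibrillar class, 6 to the basement membrane class (type IV), 9 to the FACIT class (fibril-associated collagens with interrupted helices) and 18 to the remaining classes, grouped here as other. RNA sequencing of polyadenylated RNA was available for 2 libraries, both labelled as primary adipocytes of C57BL/6 mice. The no radiation library came from sham-irradiated mice and the radiation library from mice given pelvic irradiation, described in the labels as 7.5 Gy and 5 days without saying whether the dose was daily or in total. Both titles also name PBS, and its use is not explained. Gonadal fat was taken 2 months after radiation. Cells that floated after collagenase digestion of this fat were kept in culture for 3 days. The age, sex and number of mice behind each library were not stated in the sources used here.

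The labelled cell type was checked against its markers. Of 15 mature adipocyte markers, 10 had an FPKM under 1 in both libraries, among them Adipoq, Plin1, Cidec and Lep. The other 5 were Cd36 (118 and 161), Fabp4 (96.9 in both), Lpl (68.0 and 66.6), Pnpla2 (5.11 and 5.76) and Pparg (4.59 and 4.69). All 12 fibroblast and progenitor markers had an FPKM of 1 or more in at least 1 library. So did all 10 myofibroblast and mural, 10 endothelial, 13 macrophage and 10 mesothelial markers with deposited values, so this does not set fibroblasts apart. The cells are therefore called by their label only.

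Because each condition was represented by 1 library, differences could not be tested against replicate error, and all of them compare 1 library with 1 library. Levels are given as FPKM (fragments divided by gene length and by library size). Being expressed per length, they can be compared between genes only as far as the deposited gene lengths hold. Differences are those of the deposited log2(FPKM + 0.1) values, radiation minus no radiation. The interval beside a difference is a 95% Clopper-Pearson interval, computed from the fragments of both libraries, which covers counting error only and neither the variation between mice or cultures nor the rounding of the values, up to 0.01 for a difference. It belongs to the log2 ratio of fragments scaled by library size, without the added 0.1. For genes of low FPKM it is therefore not centred on the difference. The depth recovered from the values was 30600000 fragments in the no radiation library and 35000000 in the radiation library. Of all genes, 11253 had an FPKM of 1 or more in either library and were kept, with a median difference of 0.02.

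Collagens are secreted proteins built from 3 chains that wind around each other. Glycine must recur with a period of 3 residues along each chain, because only glycine fits at the centre of the helix. Fibrillar collagens (types I, II, III, V, XI, XXIV and XXVII) form the rope-like fibres of connective tissue, type IV forms the sheet-like network of basement membranes, and FACITs bind to the surface of fibres. In fat, a basement membrane surrounds each adipocyte and each vessel, while stromal fibroblasts make most of the fibrillar collagen.

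The classes differed in the repeat itself, as read from the coding sequences of GENCODE M21 transcripts (mm10), which were matched for all 44 genes. Runs of at least 3 triplets that begin with a glycine codon were counted. The longest unbroken run ranged from 216 to 344 triplets in the fibrillar genes, from 39 to 66 in the basement membrane genes, from 32 to 113 in the FACIT genes and from 23 to 87 in the other genes. The type IV genes instead held 23 to 27 separate runs each, against 2 to 5 in the fibrillar genes. Coding exons of exactly 54 bases, which hold 6 triplets, numbered 21 to 33 in each fibrillar gene and 1 to 3 in each type IV gene. The stretches below show this difference for the genes whose levels separated most clearly by class, with the glycine codons of the repeat in capitals. For the fibrillar genes the stretch is the earliest coding exon of 54 bases that holds 6 triplets, and for the type IV genes it is the end of the longest run with the codons that follow it, joined across an intron.
Col1a1, chr11:94939904-94939957, plus strand: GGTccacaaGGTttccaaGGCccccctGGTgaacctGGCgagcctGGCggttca
Col1a2, chr6:4515481-4515534, plus strand: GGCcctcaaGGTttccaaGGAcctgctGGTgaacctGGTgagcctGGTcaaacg
Col3a1, chr1:45325360-45325413, plus strand: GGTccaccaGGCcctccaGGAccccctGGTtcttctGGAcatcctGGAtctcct
Col4a1, chr8:11244534-11245075, minus strand: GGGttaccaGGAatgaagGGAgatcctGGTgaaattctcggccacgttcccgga
Col4a2, chr8:11434771-11437639, plus strand: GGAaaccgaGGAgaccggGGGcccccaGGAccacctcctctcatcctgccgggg

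**Figure D1:**
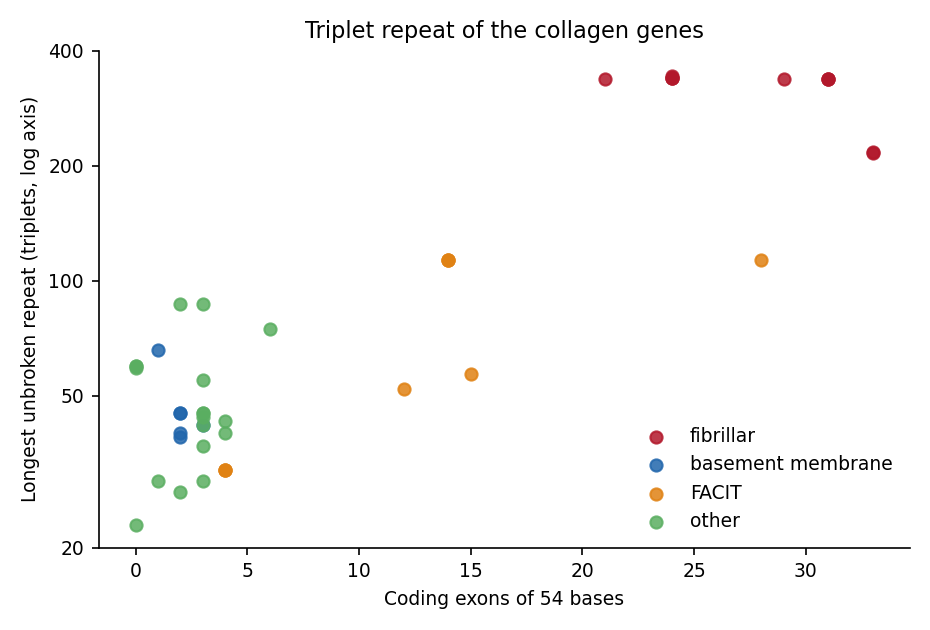
Longest unbroken run of glycine-led triplets (log axis) against the number of coding exons of 54 bases, with 1 point for each of the 44 collagen genes, coloured by class. The 11 fibrillar genes stand apart at 216 triplets or more, and all 6 type IV genes lie at 66 or fewer.

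The 44 genes spanned the whole range of the table. Of them, 22 had an FPKM of 1 or more in either library, 18 reached 5, and 7 were above 100 in both libraries. Col1a1 had 348324 fragments in the no radiation library and 293785 in the radiation library. Col9a1, a cartilage FACIT, had 0 fragments in both, which allows an FPKM of up to 0.0239 and 0.0209 at its length, respectively, if 3 fragments are taken as the limit of a count of 0. The kept genes comprised 7 fibrillar, 4 basement membrane, 3 FACIT and 8 other genes.

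**Figure D2:**
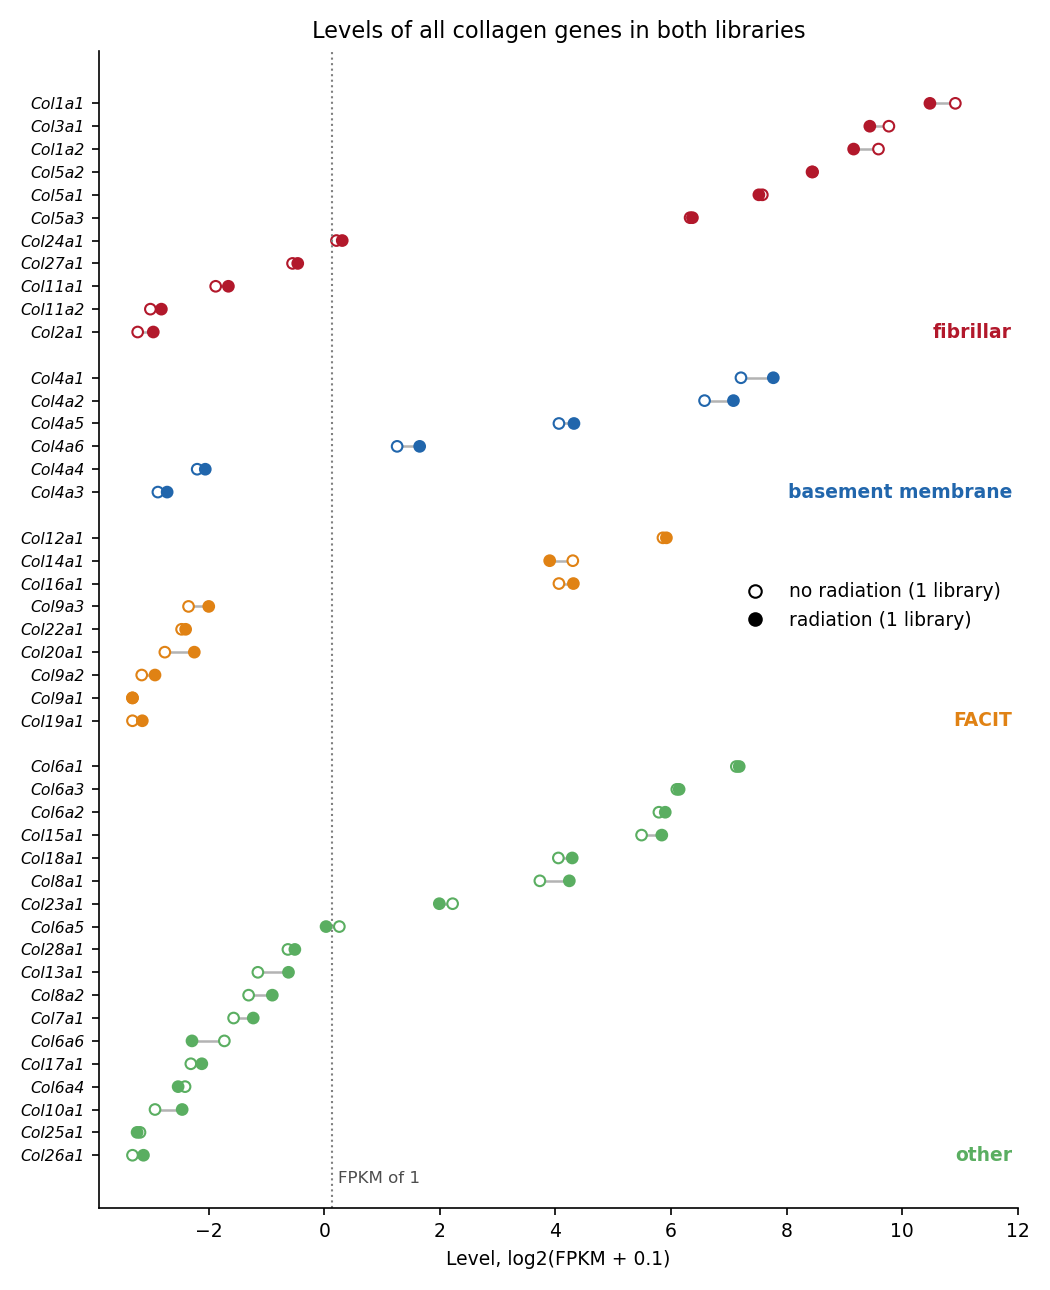
Level of each of the 44 collagen genes as log2(FPKM + 0.1), with open points for the no radiation library and filled points for the radiation library, grouped by class and ordered by level. The filled point lies to the left of the open point for Col1a1, Col3a1 and Col1a2, and to the right for all 6 type IV genes, while the dotted line marks an FPKM of 1.

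Among the fibrillar genes, the 3 most abundant, which encode types I and III, were lower in the radiation library, while the type V genes lay close to their level without radiation. Col1a1 and Col1a2 encode the chains of type I collagen, the main fibre of skin, tendon and bone. Col1a1 (chromosome 11, 94936224 to 94953042) had an FPKM of 1937 without radiation and 1428 with radiation, a difference of -0.44 (interval -0.45 to -0.43) or 0.737 of the level. Col1a2 (chromosome 6, 4505618 to 4541543) had 771 and 572, a difference of -0.43 (interval -0.44 to -0.42). The chains of type I thus differed by nearly the same factor. Col3a1 (chromosome 1, 45311538 to 45349706) encodes type III collagen, which is laid down together with type I in elastic tissues, and had an FPKM of 873 and 694, a difference of -0.33 (interval -0.34 to -0.32).

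Type V collagen is a minor component of type I fibres that starts their assembly and limits their width. Col5a2 had an FPKM of 347 without radiation and 349.6 with radiation, a difference of 0.01 whose interval reached 0. Col5a1 had 191 and 183, a difference of -0.06 (interval -0.08 to -0.04). Col5a3, the chain of a rarer form of type V, had 80.3 and 82.6, a difference of 0.04 (interval 0.01 to 0.07). None of these approached the differences of types I and III. When all genes were centred on their median difference, Col5a2 was at -0.01. Col24a1, a fibrillar collagen of developing bone, had an FPKM of 1.06 and 1.14 and an interval from -0.15 to 0.36, so no difference was detectable at 233 and 287 fragments.

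The other fibrillar genes are known from cartilage and had an FPKM under 1 in both libraries. Col27a1 had 0.583 and 0.627, Col11a1 had 0.172 and 0.216, Col11a2 had 5 and 10 fragments, and Col2a1, the main collagen of cartilage, had 1 and 5 fragments. Over the 7 kept fibrillar genes the median difference was -0.06 (range -0.44 to 0.10), with types I and III at the low end. Over all 11 genes, without the filter, the median was 0.04. With the filter set at an FPKM of 5 it was -0.195, and the mean of the 7 kept genes was -0.159.

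All 4 kept type IV genes were higher in the radiation library, and for all 4 the interval lay above 0, beside 53.5% higher and 23.8% with an interval above 0 among all kept genes. Col4a1 and Col4a2 encode the chains of the type IV network found in nearly every basement membrane. Col4a1 (chromosome 8, 11198423 to 11312826) had an FPKM of 148 without radiation and 218 with radiation, a difference of 0.56 (interval 0.54 to 0.58), or 1.47 times the level. Col4a2 (chromosome 8, 11312805 to 11449287) had 95.6 and 135, a difference of 0.50 (interval 0.47 to 0.53), or 1.41 times the level. Col4a5 and Col4a6 lie on the X chromosome and encode chains of the basement membranes of smooth muscle and skin, with Col4a5 also part of the kidney filter. Col4a5 had an FPKM of 16.6 and 19.9, a difference of 0.26 (interval 0.20 to 0.33), and Col4a6 had 2.29 and 3.04, a difference of 0.39 (interval 0.24 to 0.57). The median over the 4 genes was 0.445 (range 0.26 to 0.56), beside 0.02 over all 11253 kept genes. Col4a3 and Col4a4, partners of Col4a5 in the kidney, had 11 and 28 fragments without radiation and 18 and 38 with radiation, and their intervals, from -0.64 to 1.74 and from -0.50 to 1.0, included 0.

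The 6 type IV genes are arranged as 3 head-to-head neighbours. In the deposited coordinates the starts of Col4a1 and Col4a2 overlap by 22 bases, those of Col4a3 and Col4a4 are 71 bases apart, and those of Col4a5 and Col4a6 are 1342 bases apart. Both members were higher by 0.56 and 0.50, by 0.16 and 0.14, and by 0.26 and 0.39, respectively, the Col4a3 and Col4a4 values resting on few fragments. The labels name a stranded preparation, but whether strand was used in counting was not stated, so fragments within the 22 shared bases could count for either gene. A stretch of 30 bases near both starts is shown from RefSeq sequence (GRCm38.p6), in which the capitals mark CCAAT, a motif bound by the factor NF-Y. It lies before the listed start of Col4a2 but within the listed Col4a1 gene, outside the 22 shared bases, and it overlaps an annotated exon.
Col4a1 and Col4a2, chr8:11312761-11312790, plus strand: ccgaggagctccCCAATttgttggcgctgc
This motif begins 32 bases before the listed start of Col4a2. CCAAT or its reverse ATTGG was found in 13 of 38 collagen promoter windows (34.2%) and in 33.8% of 32851 windows of all genes, over the 250 bases before the start, so it does not set the collagen genes apart. GGGCGG or its reverse CCGCCC, the GC box, was found in 57.9% of the collagen windows and 32.7% of all windows, and TATAAA or its reverse TTTATA in 13.2% and 12.4%. The 38 windows belong to 35 of the 44 genes, and a match of letters is a description, not a binding site.

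**Figure D3:**
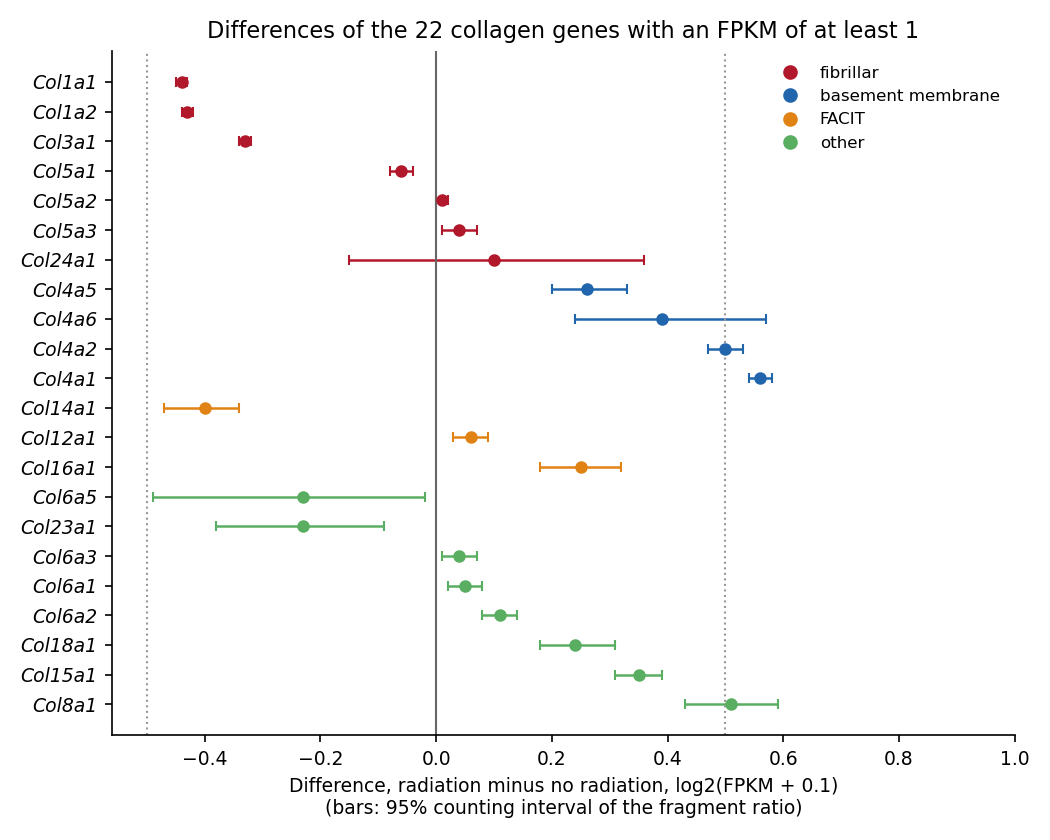
Difference between the radiation and the no radiation library in log2(FPKM + 0.1) for the 22 kept collagen genes, with bars for the 95% counting interval, colours for the class and dotted lines at 0.5 and -0.5. The 4 type IV genes lie between 0.26 and 0.56, and Col1a1, Col1a2, Col14a1 and Col3a1 lie between -0.44 and -0.33.

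FACIT collagens differed among themselves in both directions. Col12a1 and Col14a1 encode types XII and XIV, which coat type I fibres in dense connective tissue. Col14a1 (chromosome 15, 55307750 to 55520803) was the only kept FACIT gene that was lower, with an FPKM of 19.6 without radiation and 14.8 with radiation, a difference of -0.40 (interval -0.47 to -0.34). Col12a1 (chromosome 9, 79598987 to 79718722) had 57.98 and 60.4, a difference of 0.06 (interval 0.03 to 0.09). Its ratio to Col14a1, picked with the values in view, was 2.96 (interval 2.86 to 3.06) in the no radiation library and 4.08 (interval 3.94 to 4.22) in the radiation library. Col16a1, which encodes a FACIT of skin and cartilage, had 16.6 and 19.7, a difference of 0.25 (interval 0.18 to 0.32). The 3 kept genes had a median difference of 0.06 and a mean of -0.03, which differ in sign. The other 6 FACIT genes were at an FPKM of 0.15 or less in both libraries.

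In the remaining classes, 6 of 8 kept genes were higher, beside 53.5% of all kept genes. Type VI collagen forms beaded filaments around cells and is abundant in fat. Its chains Col6a1, Col6a2 and Col6a3 had an FPKM of 139.97, 55.2 and 68.5 without radiation and 145, 59.6 and 70.4 with radiation. Their differences were 0.05, 0.11 and 0.04, and all 3 intervals lay above 0 because the genes had 13215 to 27732 fragments per library. These differences are within 0.1 of the median of all kept genes. Col6a5, which can take the place of Col6a3 in the filament, had an FPKM of 1.10 and 0.921, a difference of -0.23 (interval -0.49 to -0.02), and Col6a6 had 46 and 27 fragments, a difference of -0.56 (interval -1.71 to -0.25) under the FPKM filter.

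The other kept genes of this group belong to collagens of vessel walls, basement membrane zones and cell surfaces. Col8a1 (chromosome 16, 57624256 to 57754737) encodes a short-chain collagen that forms hexagonal networks in vessel walls and the cornea. It had an FPKM of 13.2 without radiation and 18.8 with radiation, a difference of 0.51 (interval 0.43 to 0.59), second only to Col4a1 among the 22 kept genes. Col15a1 and Col18a1 encode the multiplexins, which sit at the outer face of basement membranes. Col15a1 (chromosome 4, 47208012 to 47313165) had 44.8 and 57.2, a difference of 0.35 (interval 0.31 to 0.39), and Col18a1, the precursor of endostatin, had 16.5 and 19.5, a difference of 0.24 (interval 0.18 to 0.31). Col23a1, a transmembrane collagen, had 4.56 and 3.87, a difference of -0.23 (interval -0.38 to -0.09). The multiplexins were thus higher together with type IV. With Col15a1 and Col18a1 counted as basement membrane genes, the median of that class was 0.37 over 6 kept genes, which follows from the differences given above. The anchoring fibril gene Col7a1 was moved with them but did not pass the filter.

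The 100 bases before the listed start of Col8a1 are shown because it had the largest difference outside type IV among the 22 kept genes, with GC boxes in capitals.
Col8a1, chr16:57754738-57754837, minus strand: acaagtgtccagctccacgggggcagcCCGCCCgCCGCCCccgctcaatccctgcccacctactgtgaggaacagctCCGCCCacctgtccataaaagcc
The sequence is from RefSeq (GRCm38.p6) and holds the GC box 3 times, in its reverse form CCGCCC. The same windows of Col1a2 and Col3a1, both lower in the radiation library, held none of the motifs searched. The Col1a2 window overlaps an annotated exon, and these windows of 100 bases are shorter than the 250 bases searched for the shares above. Any link between motif and difference was not tested.

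Of the 22 kept collagen genes, 15 were higher in the radiation library and 7 were lower, beside 53.5% and 44.0% of all kept genes, Col5a2 being on the other side of 0 after centring. A difference of at least 0.5 was reached by 3 of the 22 upward (Col4a1, Col8a1 and Col4a2), beside 4.31% of all kept genes, and by 0 downward, beside 1.44%. Col8a1 and Col4a2 lay at that limit, at 0.51 and 0.50, and only Col4a1 remained past it when all genes were centred on their median difference. No collagen gene among the 22 differed by 1 or more, which 0.791% of all kept genes did upward and 0.373% downward. The interval lay above 0 for 13 and below 0 for 7 of the 22, beside 23.8% and 17.4% of all kept genes, and its width follows the number of fragments, which is large for most of these genes. The median over the 22 was 0.055 (range -0.44 to 0.56), with the basement membrane class at the upper and types I and III at the lower end. In bulk RNA, fewer cells of a type cannot be told apart from less RNA per cell.

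Collagen transcripts took up 1.60% of the summed FPKM of all genes in the no radiation library and 1.36% in the radiation library. The fibrillar class went from a summed FPKM of 4202 to 3312, and the basement membrane class from 263 to 376. Within the collagens, types I and III together made up 73.0% without radiation and 64.8% with radiation. The basement membrane share was 5.35% and 9.05%, the FACIT share 1.93% and 2.29%, and that of the other classes 7.05% and 9.07%. The share of types I and III was therefore lower and that of the basement membrane class higher. Since shares sum to a whole, the shares of the FACIT and other classes also depend on the lower fibrillar sum: the summed FPKM of the FACIT class was 94.4 and 95.4, and that of the other classes 346 and 377.5.

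**Figure D4:**
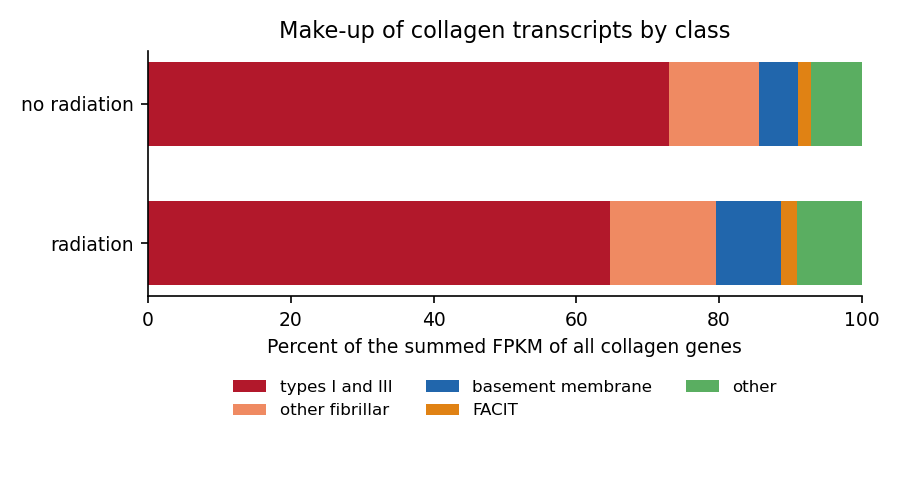
Percent of the summed FPKM of the 44 collagen genes that each class took up in each of the 2 libraries, with the fibrillar class divided into types I and III and the rest. Types I and III took up 73.0% without radiation and 64.8% with radiation, and the basement membrane class 5.35% and 9.05%.

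For 6 pairs of chains from the same collagen type, the ratio differed by at most 0.10 on the log2(FPKM + 0.1) scale between the libraries. Some pairs outside these differed more, such as Col4a5 and Col4a6, at 0.26 and 0.39, and Col6a5 and Col6a1, at -0.23 and 0.05. Others did not, such as Col4a3 and Col4a4, at 0.16 and 0.14, and Col5a3 and Col5a2, at 0.04 and 0.01. The type I molecule holds Col1a1 and Col1a2 chains at 2 to 1, and the ratio of their FPKM was 2.514 (interval 2.501 to 2.527) without radiation and 2.497 (interval 2.483 to 2.511) with radiation. That ratio depends on the deposited gene lengths, 5.879 kb for Col1a1 and 10.037 kb for Col1a2, while their coding sequences held 1453 and 1372 codons. The intervals of the ratios between genes do not cover this dependence on length. The ratio of Col4a1 to Col4a2, also 2 to 1 in the molecule, was 1.55 (interval 1.52 to 1.58) and 1.61 (interval 1.59 to 1.64), which do not overlap. Col6a3 to Col6a1 was 0.489 and 0.486, and their intervals overlapped. Col6a1 to Col6a2 was 2.53 (interval 2.48 to 2.59) and 2.43 (interval 2.38 to 2.48), and Col5a1 to Col5a2 was 0.551 (interval 0.545 to 0.557) and 0.525 (interval 0.519 to 0.530). Col8a1 exceeded Col8a2, which had an FPKM of 0.303 and 0.436, by 43.4 times (interval 31.9 to 61.2) and 43.1 times (interval 33.8 to 55.9). Ratios between molecules differed more: Col4a1 to Col1a1 was 0.0764 and 0.153, and Col5a2 to Col1a1 was 0.179 and 0.245. These last ratios were picked with the values in view.

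Neighbours on a chromosome did not always differ by a similar amount. Col3a1 and Col5a2 lie tail to tail on chromosome 1 with 24.6 kb between them, and their differences were -0.33 and 0.01. The interval of Col5a2 reached 0, so its direction is not settled. Col6a1 and Col6a2 lie 85.4 kb apart on chromosome 10 and differed by 0.05 and 0.11. Col6a4, Col6a5 and Col6a6 lie in a row on chromosome 9 with gaps of 29674 and 27984 bases, and all 3 were lower, by differences of -0.12, -0.23 and -0.56, although Col6a4 had only 20 and 19 fragments.

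The 22 collagen genes that did not pass the filter held 637 and 871 fragments together. Among the 21 of them with any fragment, 18 had a higher value in the radiation library and 3 a lower value, beside 56.4% higher among all 6059 genes of that kind. For 2 of them the interval lay above 0, beside 6.93%, and for 1 it lay below 0, beside 2.49%. These were Col13a1, a transmembrane collagen (45 and 81 fragments, interval 0.11 to 1.21), Col7a1, the anchoring fibril collagen of skin (66 and 104 fragments, interval from just above 0 to 0.93), and, below 0, Col6a6. The epithelial and cartilage collagens Col17a1 (17 and 25 fragments) and Col10a1 (3 and 9 fragments) had intervals that included 0. Col28a1 had an FPKM of 0.546 and 0.602, Col25a1 had 3 and 2 fragments, and Col26a1 had 0 and 2 fragments. The 6 FACIT genes of this kind had 0 to 15 fragments without radiation and 0 to 19 with radiation, and for most of these genes no difference was detectable at this depth.

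Procollagen chains are hydroxylated and folded in the endoplasmic reticulum before secretion. Of 22 genes listed for these steps, 21 were kept, of which 16 were lower, 4 were higher and 1 was equal, with a median difference of -0.10 (range -0.45 to 0.12). The interval lay below 0 for 12 and above 0 for 2, beside 17.4% and 23.8% of all kept genes, of which 44.0% were lower. P4ha2, a catalytic subunit of prolyl 4-hydroxylase, which stabilises the helix, showed the largest difference downward, with an FPKM of 56.0 and 40.97, a difference of -0.45 (interval -0.50 to -0.41). Its paralogues P4ha1 (130.6 and 124) and P4ha3 (6.18 and 5.00) had differences of -0.07 and -0.30. Serpinh1, which encodes the collagen chaperone HSP47, had 724 and 622, a difference of -0.22 (interval -0.24 to -0.20). Plod2 and Plod3 encode lysyl hydroxylases, and Plod2 had 119 and 109.8, a difference of -0.12, whereas Plod3 had 61.7 and 67.1, a difference of 0.12 (interval 0.07 to 0.17). That was the largest difference upward, shared with Tmem38b at 8.72 and 9.48, whose interval (-0.02 to 0.26) included 0. The list was thus mostly lower, by less than Col1a1 for every gene except P4ha2.

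Genes of the later steps showed no common direction. Among all kept genes, 53.5% were higher and 44.0% lower. Of 8 kept genes of procollagen processing, 6 were higher, 1 was lower and 1 was equal, with a median of 0.035. Bmp1, the main C-proteinase, had 76.5 and 77.1, and its enhancer Pcolce had 123.5 and 124, differences of 0.01 each that were -0.01 after centring. Tll1, a related proteinase, had 1.39 and 2.89, a difference of 1.0 (interval 0.84 to 1.27), and Adamts3, an N-proteinase, had 2.30 and 1.65, a difference of -0.45. Of 6 crosslinking genes, 4 were higher and 2 lower, with a median of 0.09. Lox, the lysyl oxidase with the highest level, had 657 and 556, a difference of -0.24 (interval -0.25 to -0.23), while Loxl2, which also acts on type IV collagen, had 96.9 and 106, a difference of 0.13 (interval 0.10 to 0.16). Tgm2, a transglutaminase, had 5.68 and 8.30, a difference of 0.54 (interval 0.42 to 0.68).

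Proteoglycans that bind fibrils had a median difference of -0.01 over 9 kept genes, of which 4 were higher and 5 lower. Dcn (decorin) had 549 and 552, Lum (lumican) 35.9 and 36.2, and Fmod (fibromodulin) 18.8 and 20.01, with intervals that included 0. Aspn (asporin) had the largest difference downward, -0.31 (interval -0.46 to -0.16), and Prelp the largest upward, 0.20 (interval 0.08 to 0.33). Genes for collagen receptors and uptake were higher for all 9 kept genes, with a median of 0.21 and 5 intervals above 0. Among all kept genes, 53.5% were higher and 23.8% had an interval above 0. Ddr1 and Ddr2, both at 0.01, were on the other side of 0 after centring. The range ran from Ddr1, with 47.1 and 47.4 or 0.01, to Adgrg1, a receptor for type III collagen, with 1.70 and 2.995, a difference of 0.78 (interval 0.57 to 1.07).

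Genes for proteins that share the basement membrane with type IV collagen were higher about as often as all kept genes. In a list of 18 such genes, written after the collagen values had been seen, 13 were kept. Of these, 7 were higher, 5 were lower and 1 was equal, beside 53.5% higher and 44.0% lower among all kept genes. The median was 0.02, as over all kept genes. The interval lay above 0 for 6 and below 0 for 5, beside 23.8% and 17.4%. Nid1, which links laminin to type IV collagen, had 94.3 and 116, a difference of 0.30 (interval 0.27 to 0.33), and Lama2 had 6.26 and 8.84, a difference of 0.49 (interval 0.42 to 0.58). The laminin chains with the highest levels, Lamc1 (99.6 and 96.9), Lama4 (52.98 and 50.1) and Lamb1 (48.7 and 49.4), differed by -0.04, -0.08 and 0.02, and the perlecan gene Hspg2 had 90.4 in both libraries. Tinagl1 had the largest difference upward, 1.13 (interval 0.96 to 1.36), and Lama1 the largest downward, -0.74 (interval -0.96 to -0.61). Nid1, Lama2, Lamc1, Lama4, Lamb1 and Hspg2 were named after their values were seen.

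**Figure D5:**
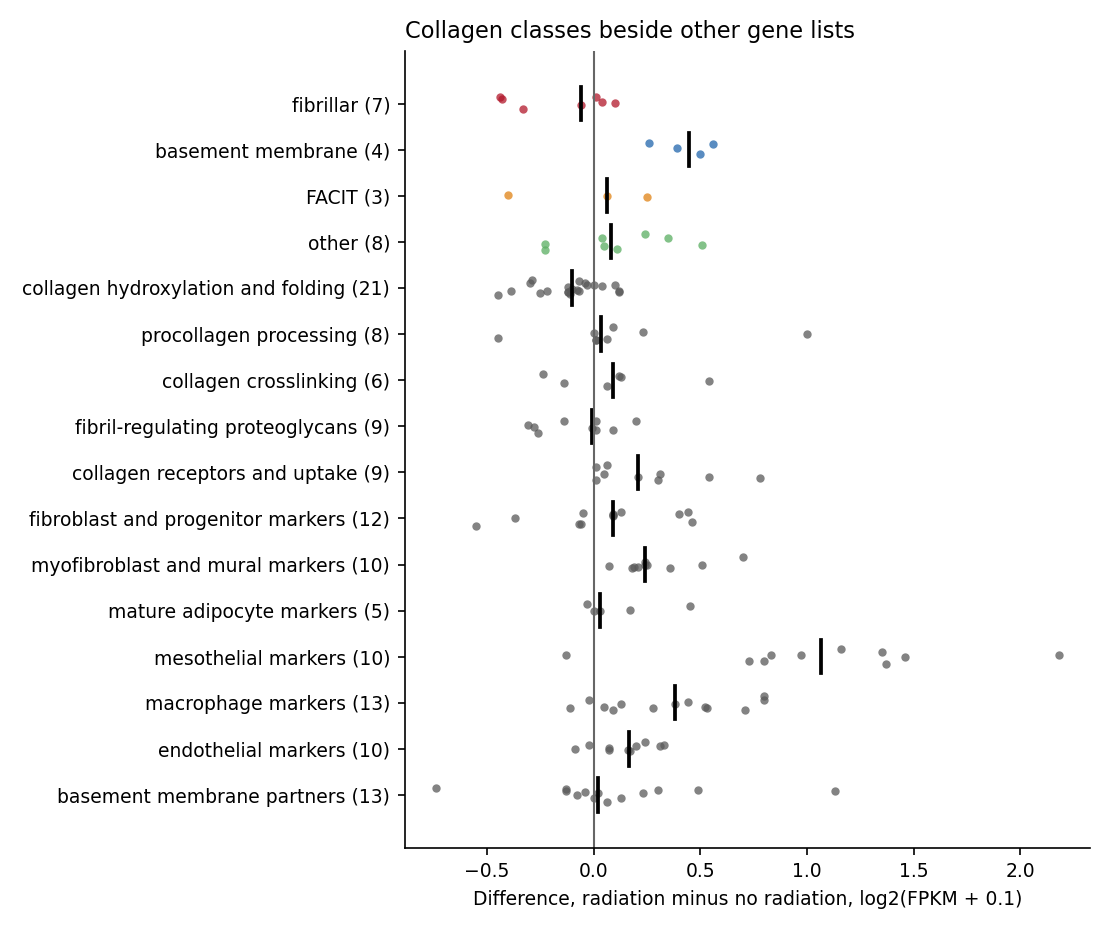
Difference between the radiation and the no radiation library in log2(FPKM + 0.1) for each kept gene of the 4 collagen classes and of the other gene lists, with 1 point per gene, a black line at the median and the number of genes in brackets. The basement membrane class has its 4 points between 0.26 and 0.56 and the mesothelial list has a median of 1.065, and epithelial markers are left out because 0 of 7 were kept.

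Markers of several cell types moved together with these differences, and their part in the result was not tested. The 5 kept adipocyte markers comprised 3 higher, 1 lower and 1 equal gene, and the summed FPKM of all 15 was 295 and 339. Cd36 had the largest difference upward, 0.45 (interval 0.42 to 0.48), and Lpl the only one downward, -0.03. The higher sum of this list rested on Cd36, at 118 and 161. The list of 12 fibroblast and progenitor markers held 7 higher and 5 lower genes, beside 53.5% and 44.0% of all kept genes. Its summed FPKM was 819 and 879. The higher sum rested on S100a4, which had 194 and 267, a difference of 0.46 (interval 0.39 to 0.53), and without it the other 11 genes summed to 625 and 612. That lower sum rested in turn on Pdgfra, at 95.6 and 73.9, so the direction of the sum depended on single genes. Thy1 and Dpp4, named after their values were seen, also lay upward, with differences of 0.40 (interval 0.22 to 0.59) and 0.44 (interval 0.21 to 0.77). Pdgfra, a fibroblast receptor named after its value was seen, had 95.6 and 73.9, a difference of -0.37 (interval -0.40 to -0.34), and Pi16 had 1.94 and 1.29, a difference of -0.55 (interval -0.92 to -0.25).

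Lists of other cell types were mostly higher in the radiation library, as type IV was. Among all kept genes, 53.5% were higher and 44.0% lower, and 23.8% had an interval above 0. All 10 myofibroblast and mural markers were higher, with a median of 0.24, 8 intervals above 0 and a summed FPKM of 1089 and 1366. Their differences ran from 0.07 for Myh11 (7.96 and 8.36) to 0.70 for Cspg4 (0.795 and 1.35). Of 10 endothelial markers, 8 were higher and 2 lower, with 5 intervals above 0 and a summed FPKM of 89.1 and 95.9. Emcn (3.29 and 4.16) and Cldn5 (2.40 and 2.25) marked the ends of this list, at 0.33 and -0.09. Of 10 mesothelial markers, 9 were higher and Wt1 was lower (20.4 and 18.7, a difference of -0.13), with a median of 1.065 and a summed FPKM of 38.1 and 55.7, and Msln had the largest difference, 2.18 (interval 1.85 to 2.95). Many of these genes were low, with a median FPKM of 0.967 and 2.76, and Msln had 0.520 and 2.71 (34 and 202 fragments). Msln, Krt18, Krt19, Upk3b and Gpm6a passed the filter only through the radiation library. Of 13 macrophage markers, 11 were higher and 2 lower, with a median of 0.38 and a summed FPKM of 623 and 665. C1qa (12.5 and 21.9) had the largest difference upward, 0.80, and Lyz2 (443 and 410.05) the largest downward, -0.11. Among 7 epithelial markers, 0 were kept, their summed FPKM was 0.615 and 1.12, and Krt5 had 0 fragments in both libraries.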

How the data were processed

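RNA sequencing libraries of 2 samples were analysed, grouped by the treatment in their labels. The authors deposited log2 FPKM values, which are log2(FPKM + 0.1) rounded to 2 decimals, with gene coordinates and lengths. The submitters' processing notes name mm10, whereas the aligner, counter and any filter are not given in those sources. The paper that cites these data describes no RNA sequencing.

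FPKM was recovered by subtracting 0.1 from the exponentiated values. Library totals were those at which genes with few fragments hold whole numbers: all 1241 genes used in the no radiation library and all 1352 in the radiation library lay within 0.12 of a whole fragment. This step and the intervals were tested on simulated data. Genes that reached an FPKM of 1 in either library were kept. Collagen classes and gene lists were written from general knowledge, and the members and lists were chosen with earlier results of these data known. Values are given for each member with an FPKM of at least 5, the largest difference in each direction of each class and list, and 12 further maturation genes fixed by name. Others are said to be named after their values were seen, apart from members under the filter, which are accounted for as members. Lists are described by counts and medians, with no test. Intervals came from SciPy 1.17.1, tables from pandas 2.3.3 and numpy 2.4.6 under Python 3.11.15, and plots from matplotlib 3.10.9. Alternatives varied the pseudocount, the filter, the scaling, the length and GC trends and the class boundaries.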

Additional observations from a re-analysis of the deposited data

How the results depend on the processing

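No paired analysis was possible because there was a single library of each kind, and no replicate could be left out. The number of collagen genes higher by at least 0.5 was 3 as reported and 1 with a pseudocount of 1, with centring on the median difference, with scaling without the 100 most abundant genes, with the length trend removed, and with the GC trend removed, an alternative added after seeing the data. It was 5 without a filter, where 1 gene was lower by at least 0.5 beside 0 as reported. It was 2 with scaling without the collagen genes. Col8a1 and Col4a2 lie at the limit, and the genes added without a filter were Col13a1 and Col20a1 upward and Col6a6 downward. Centring, scaling without the 100 most abundant genes and scaling without the collagen genes shifted all genes by -0.02, -0.012 and -0.008. The fibrillar median of -0.06 was 0.04 without a filter, -0.195 with an FPKM of at least 5 and -0.159 as a mean, the FACIT median of 0.06 was -0.03 as a mean, and the basement membrane median lay between 0.325 and 0.50 under every alternative run. Of 54 named genes, those whose interval excluded 0 kept their sign under each alternative run for single genes. That outcome was fixed beforehand, because a pseudocount cannot reverse a sign and the shifts were smaller than these differences. Sizes did depend on the setting, and 18 of 216 values lay outside the interval. With a pseudocount of 1 these were 5 genes: Msln (2.18 became 1.29), Tll1 (1.0 became 0.70), Cspg4 (0.70 became 0.39), Adgrg1 (0.78 became 0.56) and Lama1 (-0.74 became -0.50). As shares of fragments, which weight long genes more, collagens took up 4.09% without radiation and 3.45% with radiation, the fibrillar class 3.53% and 2.79%, the basement membrane class 0.197% and 0.282%, the FACIT class 0.105% and 0.107%, and the other classes 0.255% and 0.276%. With 1 added to each FPKM, Col8a1 to Col8a2 was 10.9 and 13.8, because Col8a2 is low. Depth limits the 22 genes under an FPKM of 1.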
